A study of Saccharomyces cerevisiae with 12 samples.

Results

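The genes described here encode the yeast proteasome, its transcriptional regulator and its assembly and associated factors. They were taken by gene symbol from a fixed list of 41 names, all of which were found among the 6302 genes of the 5PSeq count table. The list holds 14 core particle genes, 10 base genes, 9 lid genes, the regulator *RPN4* and 7 assembly or associated factors. It was drawn up after fold changes between *ncs2*∆*elp6*∆ and wild type in these libraries had been seen, so the members' values in that comparison are given as a description and without a test. Of the 41 genes, 35 passed the filter on low counts and entered the tests. The 6 that did not pass were *PRE7*, *PRE9*, *RPN14*, *NAS2*, *NAS6* and *HSM3*.

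5PSeq sequences mRNA fragments with a 5′ monophosphate, which are left when transcripts are degraded, so a read count here measures decay intermediates. A higher count can come with more of an mRNA or with faster decay of it, and these cannot be told apart here, since mRNA levels were not used. Counts are also relative within each library, so fewer cells and less RNA per cell cannot be told apart. Libraries came from 4 *Saccharomyces cerevisiae* strains of the BY4741 background, 3 from each. All strains were MATa with the *his3*∆1, *leu2*∆0 and *ura3*∆0 alleles. Wild type was listed with *met15*∆0 in addition, which the labels of the mutants do not list. In *hel2*∆, *HEL2* was replaced by *LEU2*. In *ncs2*∆*elp6*∆ (the double mutant), *NCS2* was replaced by *HIS3MX* and *ELP6* by *URA3*, and *ncs2*∆*elp6*∆*hel2*∆ (the triple mutant) carried all 3 replacements. Marker genes therefore differ between the strains along with the deletions. Cells were grown in YPD at 30 °C with shaking at 200 rpm, and nothing given says that the 3 libraries of a strain came from separate cultures, so p-values measure only the spread between these libraries.

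The proteasome degrades proteins that carry ubiquitin chains. Its core particle is a stack of rings of alpha and beta subunits with the proteolytic sites inside, and its regulatory particle consists of a base, in which the Rpt ATPases unfold substrates, and a lid, which removes ubiquitin. In yeast, the short-lived transcription factor Rpn4 activates most proteasome genes and is itself degraded by the proteasome, which forms a feedback loop. Elp6 is a subunit of Elongator and Ncs2 acts in the Urm1 pathway. Together these pathways modify the wobble uridine (U34) of certain tRNAs, and without them ribosomes slow down at some of the codons that these tRNAs decode. Hel2 is the ubiquitin ligase that recognises collided ribosomes and starts ribosome-associated quality control.

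Libraries held between 104202 and 415323 reads, with a median of 215412. *NCS2* had 18, 15, 0 and 2 reads and *ELP6* 20, 20, 4 and 10 reads over the 3 libraries of wild type, *hel2*∆, the double mutant and the triple mutant. *HEL2* had 48, 8, 89 and 5 reads in the same order. The deleted genes were low where the labels say so, with a few reads left. The deepest and the shallowest library both belonged to the triple mutant (replicates 2 and 1). Proteasome genes were mostly thinly covered. Over all 12 libraries together a member had from 43 reads (*HSM3*) to 3531 reads (*RPN10*). Levels are given as CPM, counts scaled to a library of 1000000 reads with TMM factors, as mean ± SD over the 3 libraries of a strain. Differences are log2 fold changes from edgeR, given ± SE.

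**Figure D1:**
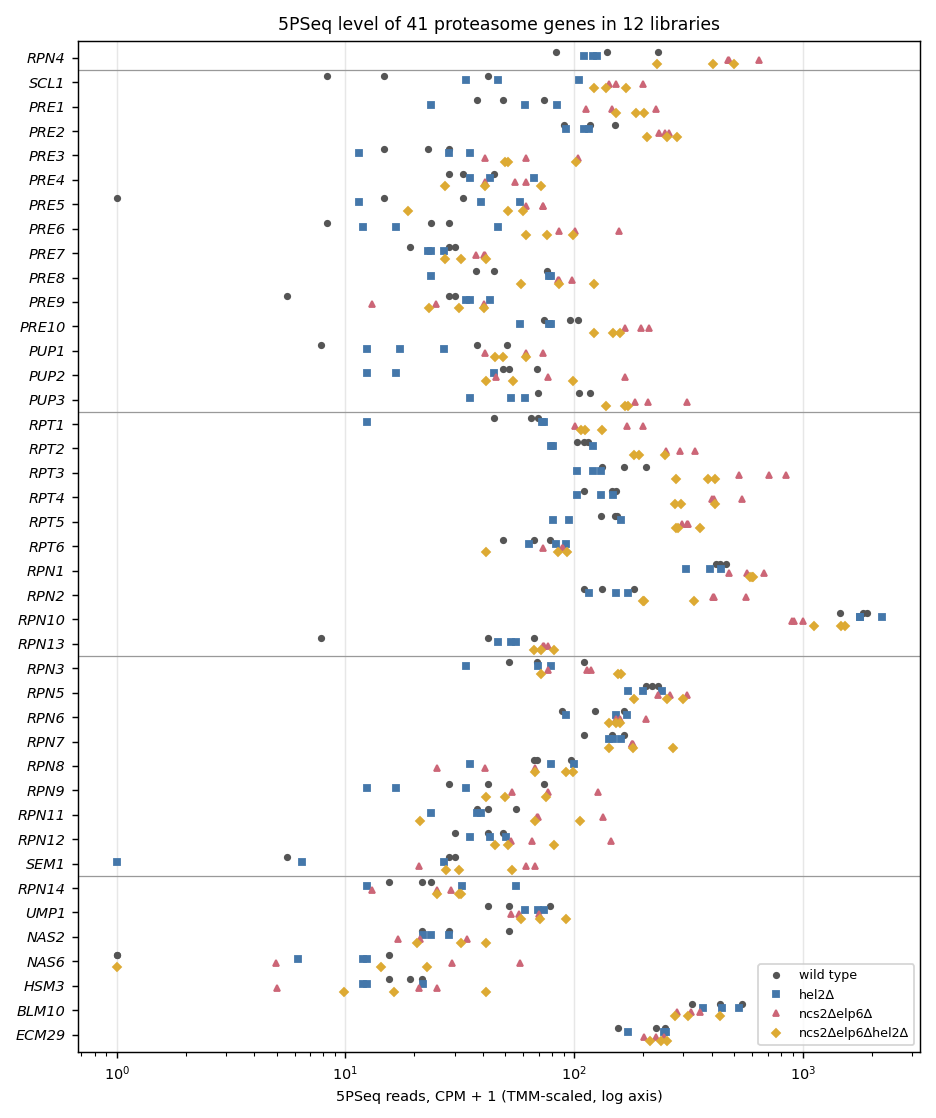
CPM plus 1 on a log axis for each of the 41 genes (rows, with lines between the groups) in each of the 12 libraries, with 1 marker per library and 1 colour and shape per strain. *RPN4* and most core and base genes lie to the right in *ncs2*∆*elp6*∆ and *ncs2*∆*elp6*∆*hel2*∆, and *RPN10* lies to the left in *ncs2*∆*elp6*∆. The lowest block holds the 7 assembly and associated factors, of which none that was tested was called.

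Described without a test, most core and base genes and *RPN4* had more 5PSeq reads in both strains without U34 modification. This rests in part on the comparison in view when the list was made. It also rests on core genes that passed the filter only through the libraries without U34 modification. The medians were smaller for the lid genes, and none of the 3 assembly factors tested was called. In the double mutant compared to wild type, the comparison in view when the list was made, the median log2 fold change over the 35 tested members was 1.01, beside 0.04 over all 3378 genes tested. Of these members 16 were called higher and 1 lower at an adjusted p under 0.05, beside 13.4% of all genes called higher and 16.7% called lower. Nothing is read from these counts, because the list was chosen with them in view.

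The comparison of the triple mutant with *hel2*∆ removes the same modifications in other libraries, none of which enters the first comparison. It is not independent of the first, because the filter and the spread were estimated over all 12 libraries together. The *RPN1* and *RPN2* calls, for example, were lost without wild-type replicate 3. Same-numbered double and triple mutant libraries also deviated together (mean correlation 0.19). In the triple mutant against *hel2*∆, 14 of the 35 members passed edgeR's quasi-likelihood test with Benjamini-Hochberg adjustment over all genes. All 14 were higher in the triple mutant. The background was 6.42% of all genes called higher and 8.14% called lower. The members' median log2 fold change was 1.00, beside 0.05 over all genes. In 19 members all 3 triple mutant libraries lay above all 3 *hel2*∆ libraries in CPM, which 16.5% of all genes did, and in 1 member, *RPN10*, they all lay below. Only 23 of the 35 members would have passed the low-count filter on the wild-type and *hel2*∆ libraries alone, and 12 of these 23 were among the 14. The remaining 12 entered the tests only through the libraries without U34 modification, where most of them were high, so their values do not count as support. They contributed the other 2 calls, *SCL1* and *PRE6*. The median was 0.85 over the 23 and 1.26 over the 12. Of the 19 members that lay above without overlap, 12 were among the 23 and 7 among the 12.

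The 14 calls did not all rest equally on the 12 libraries. *RPN4*, *PRE1*, *PRE2*, *PUP3*, *RPT3*, *RPT4* and *RPT5* were called in every one of 12 fits that left out 1 library. Without triple mutant replicate 2, the deepest library, these 7 were the only calls. The 7 lost were *SCL1* (log2 fold change 0.99, adjusted p = 0.185), *PRE6* (1.76, adjusted p = 0.0755), *PRE10* (0.87, adjusted p = 0.149), *RPT2* (0.94, adjusted p = 0.0782), *RPN1* (0.59, adjusted p = 0.165), *RPN2* (0.46, adjusted p = 0.451) and *RPN3* (1.04, adjusted p = 0.165), all by edgeR. Without *hel2*∆ replicate 1, 8 were called. DESeq2 called 9 of the 35, all among the 14, beside 346 of all 3378 genes in either direction.

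**Figure D2:**
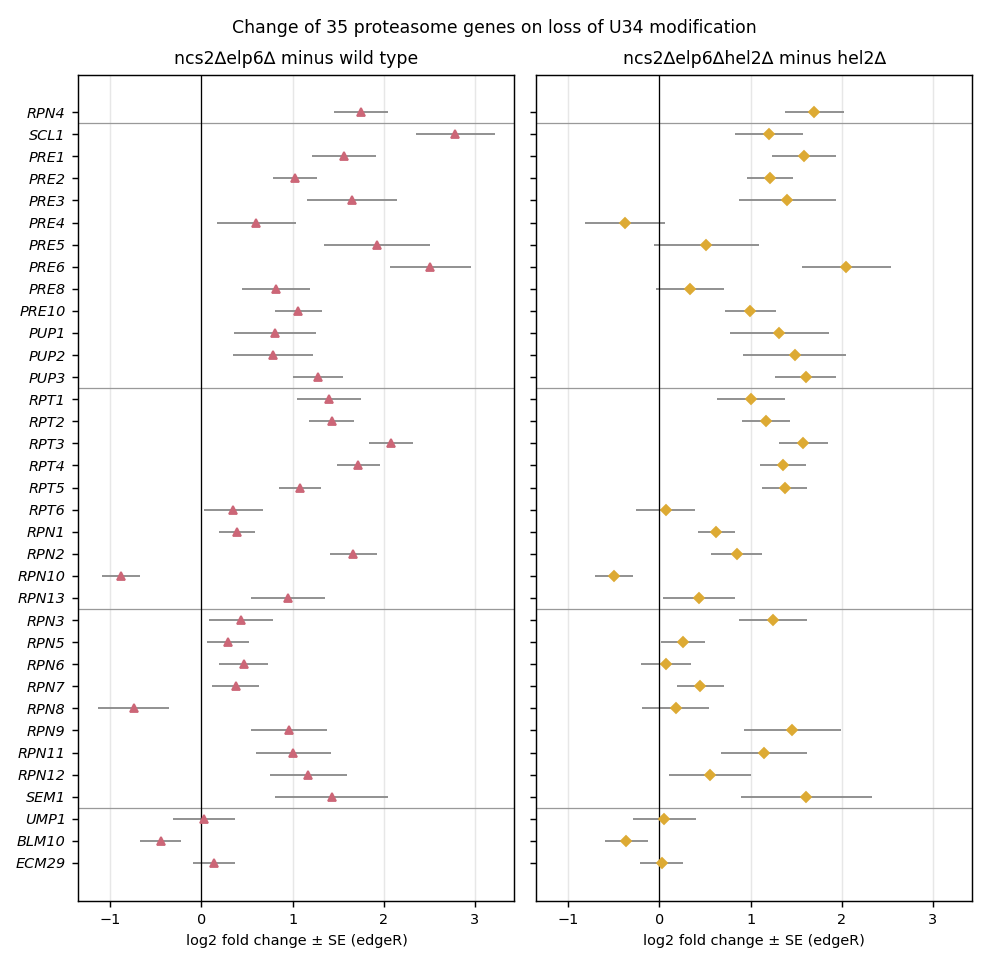
Log2 fold change of the 35 tested genes (points, with bars of 1 standard error from edgeR) in *ncs2*∆*elp6*∆ against wild type (left) and *ncs2*∆*elp6*∆*hel2*∆ against *hel2*∆ (right). The medians of the panels are 1.01 and 1.00, and *RPN10* lies below 0 in both, at −0.88 and −0.50.

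*RPN4* (YDL020C, chromosome IV, 415113 to 416708 in the RefSeq annotation of assembly R64, to which sacCer3 corresponds) was counted 51, 12 and 19 times in the wild-type libraries and 20, 11 and 23 times in the *hel2*∆ libraries. In the double mutant libraries it had 119, 212 and 117 reads, and in the triple mutant libraries 40, 228 and 52. After scaling, this was 151 ± 75.4 CPM in wild type (n = 3 here and throughout), 118 ± 8.04 in *hel2*∆, 528 ± 95.7 in the double mutant and 377 ± 136 in the triple mutant. Both strains without U34 modification thus stood above *hel2*∆ in every library. The single overlap was between triple mutant replicate 3, at 230 CPM, and wild-type replicate 1, at 231 CPM. *RPN4* rose by 1.70 ± 0.32 on the log2 scale in the triple mutant compared to *hel2*∆ (adjusted p = 0.0011, edgeR's quasi-likelihood test), a 3.25-fold difference. The difference between the double mutant and wild type was 1.75 ± 0.29. Per kb of gene length, *RPN4* was at 94.4 CPM per kb in wild type, within the range of the subunit genes.

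Of the 14 core particle genes, 12 were tested and 6 were higher in the triple mutant than in *hel2*∆ by the test (*SCL1*, *PRE1*, *PRE2*, *PRE6*, *PRE10* and *PUP3*). This was beside 6.42% of all genes called higher. The median over the 12 was 1.26, with a range from −0.38 to 2.05. However, 7 of the 12 (*SCL1*, *PRE3*, *PRE4*, *PRE5*, *PRE6*, *PUP1* and *PUP2*) passed the filter only through the libraries without U34 modification. The other 5 lay between 0.33 and 1.60, and 4 of them were called. In the double mutant against wild type the median was 1.17, and 8 were called higher, beside 13.4% of all genes. Nothing is read from this count, because the list was chosen with that comparison in view. The 6 calls in the triple mutant against *hel2*∆ were 3 genes of alpha and 3 of beta subunits. *PRE1* (beta) was at 1.58 ± 0.35 and *PRE10* (alpha) at 1.00 ± 0.28 in the triple mutant against *hel2*∆ (adjusted p = 0.0048 and 0.0203, edgeR). Of the alpha subunit genes that did not pass, *PUP2* was at 1.48 ± 0.56, *PRE5* at 0.51 ± 0.57 and *PRE8* at 0.33 ± 0.37.

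*PRE6*, which encodes an alpha subunit, had 5, 4 and 1 reads in wild type, 2, 4 and 3 in *hel2*∆, 25, 52 and 21 in the double mutant, and 6, 45 and 17 in the triple mutant. It went from 24.0 ± 18.7 CPM in *hel2*∆ to 78.0 ± 19.0 CPM in the triple mutant, with no overlap between the strains. The log2 fold change was 2.05 ± 0.49 (adjusted p = 0.0082, edgeR's quasi-likelihood test). It rests on 9 reads in *hel2*∆, and *PRE6* entered the test only through the libraries without U34 modification. The call was lost without *hel2*∆ replicate 1 as well (1.68, adjusted p = 0.0763).

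*PUP3*, a beta subunit gene, had more reads to rest on, with 23, 10 and 16 in wild type, 11, 3 and 10 in *hel2*∆, 46, 103 and 52 in the double mutant, and 17, 76 and 31 in the triple mutant. Its *hel2*∆ libraries were the lowest of the 4 strains, at 48.7 ± 13.3 CPM, and lay below all wild-type libraries (96.4 ± 25.0 CPM). That difference between *hel2*∆ and wild type did not pass the test (−0.91 ± 0.37, adjusted p = 0.98, edgeR). *PUP3* rose from *hel2*∆ to 158 ± 18.4 CPM in the triple mutant, by 1.60 ± 0.33 (adjusted p = 0.0026, edgeR). Against wild type the triple mutant was at 0.70 ± 0.29 and was not called (adjusted p = 0.129, edgeR).

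*PRE2*, which carries the chymotrypsin-like active site, had 33, 13 and 16 reads in wild type, 21, 8 and 21 in *hel2*∆, 65, 78 and 62 in the double mutant, and 25, 128 and 47 in the triple mutant. It was at 248 ± 12.1 CPM in the double mutant and 246 ± 36.0 CPM in the triple mutant, a difference of 0.01 ± 0.21, and above every wild-type and *hel2*∆ library in both. The rise over *hel2*∆ (105 ± 12.5 CPM) was 1.21 ± 0.25 (adjusted p = 0.0027, edgeR). The other catalytic subunit genes, *PRE3* and *PUP1*, had higher values too, at 1.40 ± 0.54 and 1.32 ± 0.54, but did not pass the test (edgeR adjusted p = 0.0796 and 0.105).

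*SCL1*, an alpha subunit gene, had the largest fold change of any member in the double mutant against wild type, 2.79 ± 0.43. It had 9, 2 and 1 reads in wild type, 6, 4 and 20 in *hel2*∆, 38, 66 and 35 in the double mutant, and 12, 77 and 31 in the triple mutant. One *hel2*∆ library, replicate 3 at 104 CPM, stood well above the other 2 at 32.8 and 45.4 CPM, and wild type was lower still, at 20.6 ± 17.8 CPM. Against *hel2*∆, the triple mutant was 2.30-fold higher (SE 0.37 on the log2 scale, adjusted p = 0.0323, edgeR), and this call was lost with DESeq2 (adjusted p = 0.0784), with the replicate number as a block (edgeR, adjusted p = 0.0580) and without *hel2*∆ replicate 1 (0.82, adjusted p = 0.228) or replicate 2 (1.10, adjusted p = 0.0894).

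*PRE4*, a beta subunit gene, showed no such pattern, with 7, 4 and 6 reads in wild type, 12, 3 and 8 in *hel2*∆, 10, 18 and 15 in the double mutant, and 7, 12 and 9 in the triple mutant. Its values overlapped between all strains, and its difference between the triple mutant and *hel2*∆ was −0.38 ± 0.44 (adjusted p = 0.61, edgeR), the only core gene below 0. The 2 core genes that were not tested, the beta subunit gene *PRE7* with 78 reads over the 12 libraries and the alpha subunit gene *PRE9* with 74, ranged over 23.5 to 38.4 CPM and 20.3 to 36.2 CPM in their strain means.

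All 10 base genes were tested, and 6 were higher in the triple mutant than in *hel2*∆ by the test (*RPT2*, *RPT3*, *RPT4*, *RPT5*, *RPN1* and *RPN2*). None was lower. Of all genes, 6.42% were called higher and 8.14% lower. The base median was 0.92 and ran from −0.50 for *RPN10* to 1.58 for *RPT3*. In the double mutant against wild type the median was 1.24, with 6 called higher and 1, *RPN10*, called lower, beside 13.4% and 16.7% of all genes. These counts too come from the comparison in view when the list was made, and nothing is read from them. Among the 6 ATPase genes, 5 had all triple mutant libraries above all *hel2*∆ libraries, which 16.5% of all genes did. The exception was *RPT6*, with overlapping values and a difference of 0.07 ± 0.33. *RPT4* was at 1.36 ± 0.25 and *RPT2* at 1.17 ± 0.27 (adjusted p = 0.00099 and 0.0057, edgeR), while *RPT1*, at 1.00 ± 0.37, did not pass (adjusted p = 0.0722, edgeR). *RPN1*, the largest subunit of the base and a docking site for ubiquitin-binding proteins, was at 0.63 ± 0.20 (adjusted p = 0.0399, edgeR), and *RPN2*, a scaffold subunit, at 0.85 ± 0.28 (adjusted p = 0.0410, edgeR). The *RPN1* call held in 5 and the *RPN2* call in 6 of the 12 fits that left out 1 library. With the replicate number as a block their adjusted p were 0.0580 and 0.0754 (edgeR), and both were also lost with DESeq2 and with library total as a covariate. *RPN13*, a ubiquitin receptor like *RPN10*, was at 0.43 ± 0.40 and was not called.

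*RPT3* (YDR394W, chromosome IV, 1261681 to 1262967) is an ATPase gene and was the third most counted member. It had 29, 24 and 28 reads in wild type, 22, 9 and 25 in *hel2*∆, 178, 279 and 130 in the double mutant, and 38, 189 and 63 in the triple mutant. The 4 strains formed steps, with *hel2*∆ lowest at 117 ± 14.1 CPM, wild type at 167 ± 36.2, the triple mutant at 358 ± 70.3 and the double mutant highest at 691 ± 159, and no library of 1 strain overlapped those of another. *RPT3* rose by 1.58 ± 0.27 in the triple mutant compared to *hel2*∆ (adjusted p = 0.00048, edgeR's quasi-likelihood test). The step between *hel2*∆ and wild type did not pass the test (−0.45 ± 0.30, adjusted p = 0.98, edgeR). *RPT5*, also an ATPase gene, had 33, 19 and 21 reads in wild type, 29, 7 and 18 in *hel2*∆, 78, 98 and 78 in the double mutant, and 35, 130 and 63 in the triple mutant. Its means were 306 ± 10.1 CPM in the double mutant and 305 ± 41.5 CPM in the triple mutant, a difference of −0.04 ± 0.21. It rose by 1.37 ± 0.25 over *hel2*∆ (adjusted p = 0.00083, edgeR).

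*RPN10* (YHR200W, chromosome VIII, 499079 to 499885), a ubiquitin receptor of the base, stood apart from the other members in level, and was the only one called lower in the double mutant against wild type. It had 320, 278 and 251 reads in wild type, 406, 156 and 342 in *hel2*∆, 230, 298 and 247 in the double mutant, and 145, 512 and 346 in the triple mutant. Per kb of gene length it was at 2140 ± 299 CPM per kb in wild type, 13.1 times the next member, the lid gene *RPN5* at 163 ± 9.76. *RPN10* alone made up 31.5% of all reads on the 41 genes in wild type and 35.7% in *hel2*∆, but 11.6% in the double mutant and 17.6% in the triple mutant. Its level was 1727 ± 241 CPM in wild type, 1923 ± 254 in *hel2*∆, 936 ± 51.5 in the double mutant and 1370 ± 222 in the triple mutant. All 3 double mutant libraries lay below all wild-type libraries, and all 3 triple mutant libraries below all *hel2*∆ libraries. The latter difference, −0.50 ± 0.21, did not pass the test (adjusted p = 0.11, edgeR). Sums over the base genes are given without *RPN10*, a choice made after its values were seen.

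All 9 lid genes were tested, and 1 of them, *RPN3*, was called higher in the triple mutant than in *hel2*∆ (1.25 ± 0.37, adjusted p = 0.0252, edgeR), with overlapping libraries. The *RPN3* call was lost with DESeq2 (adjusted p = 0.0824) and with library total as a covariate (edgeR, adjusted p = 0.112). It was also lost without *hel2*∆ replicate 1 (0.89, edgeR, adjusted p = 0.195). All 9 lid values in that comparison were above 0, between 0.07 and 1.61, where 53.6% of all genes were positive. Their median was 0.56. The 1 call of 9 (11.1%) stood beside 6.42% of all genes called higher, and nothing is read from it. Of the 9, *RPN9*, *RPN11*, *RPN12* and *SEM1* passed the filter only through the libraries without U34 modification, as did *RPN13* of the base. In the double mutant against wild type the median was 0.46, and 1 gene, *RPN12*, was called, beside 13.4% of all genes called higher. The *RPN12* call held in 8 of the 12 fits that left out 1 library. It was lost with DESeq2 (adjusted p = 0.103) and with library total as a covariate (edgeR, adjusted p = 0.164). *SEM1*, the smallest lid subunit gene, had 1, 4 and 4 reads in wild type, 1, 0 and 5 in *hel2*∆, 5, 22 and 15 in the double mutant, and 3, 24 and 6 in the triple mutant. Its triple mutant libraries were all above its *hel2*∆ libraries, but with 6 reads in *hel2*∆ the difference of 1.61 ± 0.72 was not resolved (adjusted p = 0.13, edgeR). *RPN9* had 6, 6 and 10 reads in wild type, 6, 1 and 3 in *hel2*∆, 19, 42 and 13 in the double mutant, and 4, 34 and 11 in the triple mutant, and the triple mutant again did not overlap *hel2*∆, at 1.46 ± 0.53 (adjusted p = 0.066, edgeR).

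The most counted lid gene, *RPN5*, had 51, 30 and 30 reads in wild type, 44, 15 and 38 in *hel2*∆, 58, 103 and 65 in the double mutant, and 25, 137 and 41 in the triple mutant. Its strain means lay between 203 and 268 CPM with overlapping libraries, and it differed by 0.26 ± 0.24 between the triple mutant and *hel2*∆ (adjusted p = 0.49, edgeR). *RPN6*, which bridges the lid to the core particle, had 27, 24 and 12 reads in wild type, 31, 8 and 29 in *hel2*∆, 38, 68 and 39 in the double mutant, and 15, 72 and 32 in the triple mutant. At 0.07 ± 0.27 (adjusted p = 0.90, edgeR), it was the lid gene with the smallest value in that comparison. *RPN11*, the deubiquitinase of the lid, had 20.2, 105 and 66.4 CPM in the triple mutant and overlapped *hel2*∆ (1.15 ± 0.47, adjusted p = 0.0993, edgeR). *RPN12*, *RPN7* and *RPN8* were at 0.56 ± 0.45, 0.45 ± 0.26 and 0.18 ± 0.37 there and were not called.

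Of the 7 assembly and associated factors, 3 were tested and none was called in any comparison. *UMP1*, the chaperone of core particle maturation, had 17, 6 and 7 reads in wild type, 11, 6 and 14 in *hel2*∆, 13, 23 and 14 in the double mutant, and 9, 32 and 13 in the triple mutant. *ECM29*, which tethers the core to the regulatory particle, had 34, 33 and 34 reads in wild type, 46, 15 and 47 in *hel2*∆, 57, 82 and 50 in the double mutant, and 25, 109 and 48 in the triple mutant. *BLM10*, a cap protein of the core particle, had 95, 79 and 45 reads in wild type, 81, 46 and 70 in *hel2*∆, 89, 93 and 80 in the double mutant, and 31, 126 and 98 in the triple mutant. *UMP1* and *ECM29* overlapped between all strains in CPM, and *BLM10* between all but *hel2*∆ and the double mutant, which was lower. The differences between the triple mutant and *hel2*∆ were 0.05 ± 0.34 for *UMP1*, 0.02 ± 0.23 for *ECM29* and −0.36 ± 0.23 for *BLM10* (adjusted p = 0.95, 0.96 and 0.31, edgeR). The base chaperone genes *RPN14*, *NAS2*, *NAS6* and *HSM3* had between 43 and 67 reads over the 12 libraries and were not tested. Together with *PRE7* and *PRE9* they took 0.0108% of reads in wild type, 0.0124% in *hel2*∆, 0.0167% in the double mutant and 0.0155% in the triple mutant.

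Per kb of gene length, the median over the 14 core genes was 41.1 CPM per kb in wild type, 54.3 in *hel2*∆, 119 in the double mutant and 94.5 in the triple mutant. For the 9 base genes other than *RPN10* it was 82.4, 84.7, 192 and 157 CPM per kb in the same order, for the lid 75.2, 50.4, 105 and 83.7, and for the assembly factors 37.3, 35.6, 40.1 and 41.8. Levels per kb of core and base genes in the mutants without U34 modification were thus above those of the assembly factors by more than in wild type.

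Summing reads over each group uses its members whether or not they passed the filter, except that *RPN10* is left out of the base. Core genes took 0.0594 ± 0.0125% of the reads of a library in wild type, 0.0564 ± 0.0112% in *hel2*∆, 0.174 ± 0.0405% in the double mutant and 0.138 ± 0.0260% in the triple mutant. Base genes without *RPN10* took 0.117 ± 0.0123%, 0.103 ± 0.0177%, 0.334 ± 0.0521% and 0.231 ± 0.0460% in the same order. For both groups, every library without U34 modification exceeded every library with it. Lid genes took 0.0710 ± 0.00605%, 0.0646 ± 0.0133%, 0.117 ± 0.0309% and 0.103 ± 0.0270%, and assembly factors 0.0699 ± 0.00568%, 0.0721 ± 0.00446%, 0.0751 ± 0.00541% and 0.0737 ± 0.00107%. The mean share in the triple mutant was 2.44 times that in *hel2*∆ for the core, 2.25 times for the base without *RPN10*, 1.59 times for the lid, 3.67 times for *RPN4* and 1.02 times for the assembly factors. With *RPN10* included the base ratio was 1.34, and over all 41 members it was 1.51. The shares are of the raw library total. Without TMM scaling the log2 fold changes of all genes tested shift upwards, by a median of 0.18 in this comparison and 0.25 in the double mutant against wild type, so part of each ratio is shared with all genes. No p-value is given for sums over a chosen list.

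**Figure D3:**
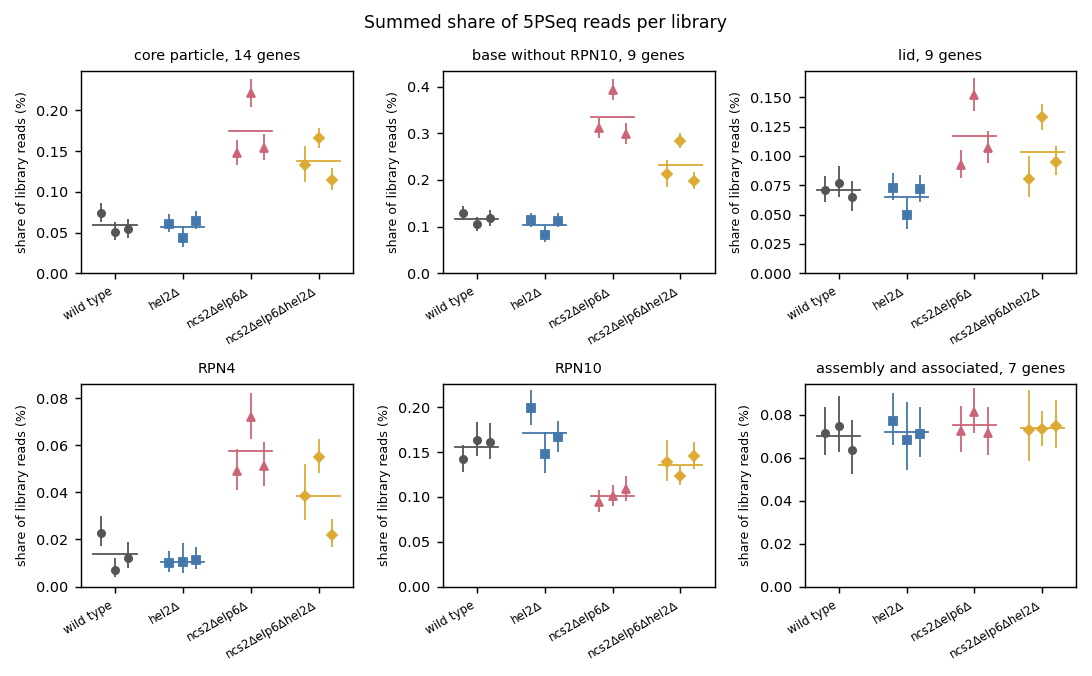
Share of each library's reads (%, linear axes from 0) on 6 groups of members, with 1 marker per library, bars for the 95% Wilson interval and a horizontal line at the strain mean. Means for the core particle are 0.0594, 0.0564, 0.174 and 0.138% from left to right, while the assembly factors stay between 0.0699 and 0.0751%.

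Library depth differed between the strains compared, and its part in the result was not tested beyond the values that follow. The shallowest triple mutant library (replicate 1, 104202 reads) and the shallowest *hel2*∆ library (replicate 2, 105563 reads) are nearly matched. In this pair, core genes took 0.132% of reads (95% Wilson interval 0.112 to 0.156%) against 0.0436% (0.0327 to 0.0581%), a ratio of 3.04. The ratio was 2.57 for the base without *RPN10*, 1.64 for the lid, 3.68 for *RPN4*, 1.07 for the assembly factors and 0.942 for *RPN10*. Intervals cover counting error only. This *hel2*∆ library had the lowest share of any library for the core, the base without *RPN10* and the lid. The ratios of strain means were lower, at 2.44, 2.25 and 1.59. Within each strain, the deepest library had the highest share of the 32 core, base and lid genes other than *RPN10*. These shares were 0.274% in wild type, 0.249% in *hel2*∆, 0.766% in the double mutant and 0.582% in the triple mutant. With the log2 of the library total as a covariate, 9 members were called in the triple mutant against *hel2*∆, all higher, and the median was 0.71. Of all 3378 genes, 303 were called in that fit in either direction.

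**Figure D4:**
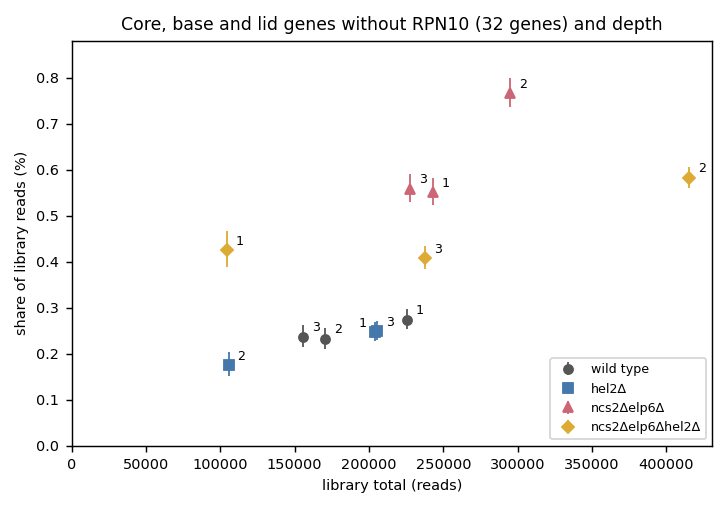
Share of reads (%) on the 32 core, base and lid genes other than *RPN10* against the library total (reads), with 1 marker per library, its replicate number, and bars for the 95% Wilson interval. The *ncs2*∆*elp6*∆*hel2*∆ library with 104202 reads lies at 0.425%, above all 6 wild-type and *hel2*∆ libraries, which lie between 0.175 and 0.274%.

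Deletion of *HEL2* with U34 modification intact changed no member by the test. In *hel2*∆ compared to wild type, 0 of the 35 members were called by edgeR's quasi-likelihood test, beside 0.0888% of all genes called in either direction, and 2 had an unadjusted p under 0.05, as did 141 of all 3378 genes. DESeq2 called 0 as well, beside 2 of all genes. The median log2 fold change was −0.01, the same as over all genes. This comparison shares the wild-type libraries with that of the double mutant against wild type.

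*HEL2* deletion without U34 modification was compared next. In the triple mutant compared to the double mutant, 25 of the 35 members had negative and 10 positive values, where 53.3% of all genes were positive, and the median was −0.24 beside 0.03 over all genes. The test called 2 lower and 0 higher, beside 1.01% of all genes called lower and 4.68% called higher. The called genes were *RPT3*, which fell by 0.95 on the log2 scale (SE 0.21, adjusted p = 0.0087, edgeR), and *RPN2*, which fell by 0.84 (SE 0.23, adjusted p = 0.030, edgeR). *RPN2* was chosen after its values were seen, and had 40, 16 and 18 reads in wild type, 21, 15 and 29 in *hel2*∆, 102, 186 and 100 in the double mutant, and 20, 152 and 45 in the triple mutant. The *RPT3* call was lost without double mutant replicate 2 (−0.82, adjusted p = 0.0569) or triple mutant replicate 3 (−0.78, adjusted p = 0.103), and the *RPN2* call in 4 of the 12 fits that left out 1 library, with values between −0.91 and −0.67 there. The 3 double mutant libraries also enter the comparison in view when the list was made.

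*RPN10* went the other way in this comparison, with all triple mutant libraries above all double mutant libraries (0.54 ± 0.21, adjusted p = 0.138, edgeR). So did the lid gene *RPN8* (0.93 ± 0.36, adjusted p = 0.132, edgeR), which had 10, 22 and 6 reads in the double mutant and 9, 45 and 15 in the triple mutant. Neither passed the test. Compared to wild type, the triple mutant had 10 members called higher and 0 lower, beside 4.85% and 6.22% of all genes, with a median of 0.71 beside 0.02. The 10 were *RPN4*, *SCL1*, *PRE1*, *PRE2*, *PRE6*, *RPT2*, *RPT3*, *RPT4*, *RPT5* and *RPN2*, and 4 of them, *SCL1*, *PRE1*, *RPT4* and *RPT5*, stayed called without triple mutant replicate 2. The *RPN2* call held in 3 of the 12 fits that left out 1 library, with a value of 0.45 without triple mutant replicate 2, and was lost with DESeq2 (adjusted p = 0.141), the replicate block (edgeR, adjusted p = 0.0884) and the covariate (edgeR, adjusted p = 0.17). *RPT2* was lost with DESeq2 (adjusted p = 0.0589) and the covariate (edgeR, adjusted p = 0.0565).

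Whether loss of U34 modification acted differently with and without *HEL2* was tested as an interaction. It was not called for any of the 35 members, beside 0.0296% of all genes. The interaction uses all libraries, those in view when the list was made included. The median was −0.05 beside 0.08, and 2 members had an unadjusted p under 0.05, as did 328 of all 3378 genes. DESeq2 called 0 as well, beside 2 of all genes. For *RPN4* the interaction was −0.05 ± 0.46, for *RPT3* −0.50 ± 0.37, for *RPT5* 0.29 ± 0.35 and for *PUP3* 0.32 ± 0.44. Standard errors were as large as or larger than most of these values. *SCL1* had the most negative value, −1.59 ± 0.61 (adjusted p = 0.333, edgeR).

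A few members were classed in the study by disome footprints, which mark collided ribosomes, from profiling of the same strains. *PRE6*, *PRE10*, *PUP2*, *RPT1* and *RPT3* are on its list of transcripts refractory to ribosome-associated quality control, and *RPN5* and *RPN9* are on its list of targets. In 5PSeq, the log2 fold change of the triple against the double mutant was −0.46 for *PRE6*, −0.39 for *PRE10*, −0.43 for *PUP2*, −0.41 for *RPT1* and −0.95 for *RPT3*. It was −0.12 for *RPN5* and −0.53 for *RPN9*. *RPN9* thus lay within the range of the refractory transcripts and *RPN5* above it, and *RPT3* alone of these 7 passed the test. The study compared 5PSeq of these classes relative to mRNA levels. That was not done here, so these values are of another measure and do not bear on its comparison.

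Other genes of the ubiquitin pathway, from a list of 59 chosen by function with earlier results of these data known, were counted beside the members. Of 44 tested, 5 rose and 3 fell in the triple mutant compared to *hel2*∆, beside 6.42% and 8.14% of all genes, and the median was 0.21. Counts this small and near the background show nothing particular to the list. *UBI4*, the stress-induced polyubiquitin gene, rose by 2.02 on the log2 scale (adjusted p = 0.00071, edgeR), although its repeats resemble the other ubiquitin genes and uniquely mapped reads can miss part of its counts. *UBP6*, the deubiquitinase bound to the base, rose by 1.02 (adjusted p = 0.0032, edgeR). *CDC34*, a conjugating enzyme gene, and *UFD1* and *NPL4*, which encode cofactors of the Cdc48 segregase, were the other rises, at 1.07, 1.40 and 1.07. For this list, the low-count filter was not repeated on the wild-type and *hel2*∆ libraries alone. *UBI4* and *UFD1* had only 20 and 15 reads over the *hel2*∆ libraries. They may have entered the tests only through the libraries without U34 modification, so their values do not count as support. The falls were in *POC4*, which encodes a chaperone of the alpha ring (−1.56, adjusted p = 0.0014, edgeR), and the ubiquitin ligase genes *UFD4* (−1.10) and *RKR1* (−1.06).

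In the double mutant against wild type, 7 of the 44 were called higher and 7 lower, close to the 13.4% and 16.7% of all genes, with a median of 0.09. *POC4* was at −3.36 and *UBI4* at 2.20. *HSF1*, *YAP1*, *PDR1* and *PDR3*, whose products regulate *RPN4* transcription in yeast, were not called in either comparison and lay between −0.43 and 0.56. *UBR2*, whose product helps degrade Rpn4, was called at −0.57 in the double mutant against wild type (adjusted p = 0.0343, edgeR). In the triple mutant against *hel2*∆ it was at −0.17 and was not called (adjusted p = 0.637, edgeR). *MUB1*, listed with it among the ligases, was at 0.13 and 0.44 in these comparisons and was called in neither (adjusted p = 0.758 and 0.362, edgeR).

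**Figure D5:**
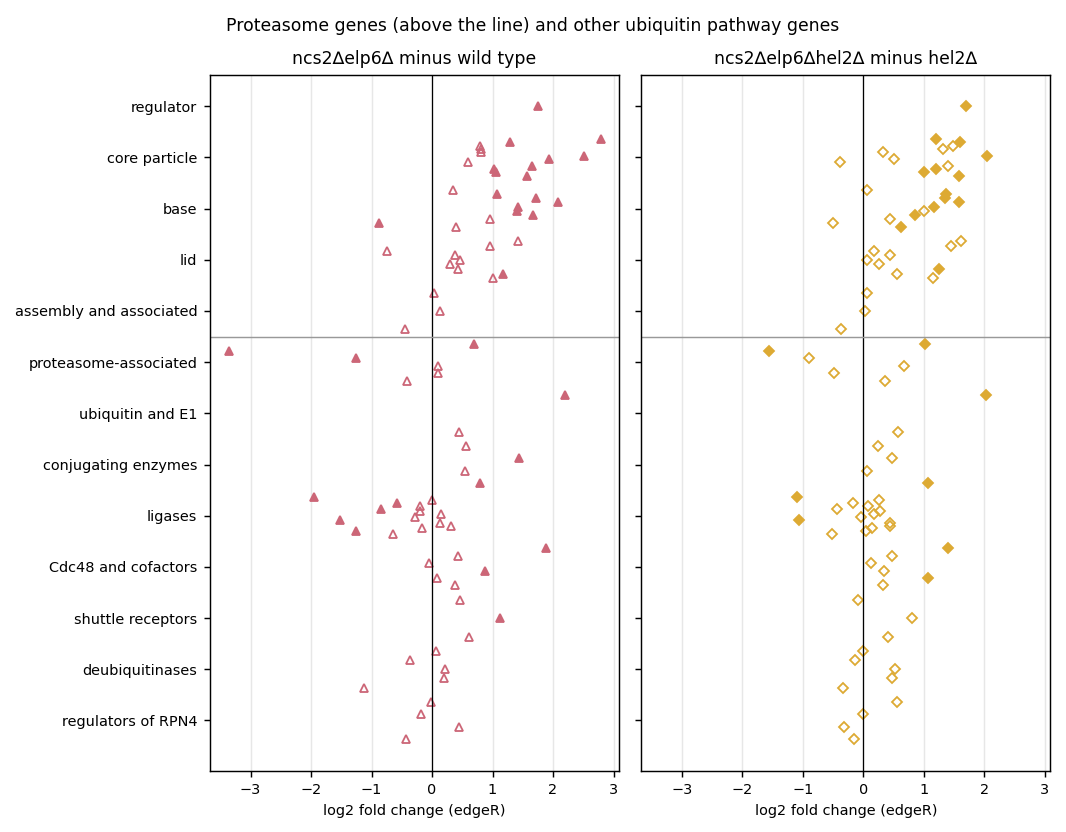
Log2 fold changes from edgeR for the 35 tested proteasome genes (above the line) and the 44 tested genes of the wider ubiquitin pathway (under it), by role, in *ncs2*∆*elp6*∆ against wild type (left) and *ncs2*∆*elp6*∆*hel2*∆ against *hel2*∆ (right). Filled markers have an adjusted p under 0.05. In the right panel 14 proteasome genes are filled, all to the right of 0, against 5 to the right and 3 to the left among the 44.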

How the data were processed

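5PSeq was analysed in 12 libraries, 3 from each of 4 strains. The authors deposited raw counts of unique reads per open reading frame, extended by 21 bases. Per their methods and processing notes, adapters were trimmed (cutadapt), reads from noncoding RNA were removed with STAR 2.5.3a, the rest were mapped to yeast open reading frames (sacCer3) in the sense direction with Bowtie 1.2.3, and PCR duplicates were removed by 8-base barcodes (UMI-tools). All 12 columns were matched to libraries by name.

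Counts were scaled by TMM, filtered with filterByExpr (minimum count 10, leaving 3378 of 6302 genes) and fitted with edgeR 4.0.16 (quasi-likelihood F test, R 4.3.3) on all 12 libraries, with 1 coefficient per strain and no other term. Benjamini-Hochberg adjustment ran over all genes tested, and genes with an adjusted p under 0.05 were called. RNA-seq of the study was not used here. A standard error is the log2 fold change divided by the square root of F. Shares of reads have 95% Wilson intervals. The procedure was also run on simulated counts drawn independently for each library, without libraries that deviate together. Its outcome is not given here.

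The members and gene lists were chosen with earlier results of these data known. Reads per library are given for *RPN4* and, in each group, for the 2 highest and the lowest member in the triple mutant against *hel2*∆, the highest in the double mutant against wild type and the most counted. *RPN2*, *RPN8*, *RPN11* and other members named were chosen after their values were seen. Alternatives were no filter, 10 counts in every library, DESeq2 1.42.0, upper-quartile scaling, no TMM, only the strains compared, a replicate block, each library left out and, chosen after the data were seen, library total as a covariate. A search of promoters for the Rpn4 site was planned and not run here. Gene lengths and positions are from RefSeq, assembly R64.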

Additional observations from a re-analysis of the deposited data

Results flagged for a closer look

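*PRE5*, an alpha subunit gene, was lower in every triple mutant library than in the double mutant, while every *hel2*∆ library was above the mean of wild type in log2(CPM + 1), a mean that 1 library with 0 reads pulls down. In CPM, *hel2*∆ replicate 3 (10.4) was below the wild-type mean (15.1). The 2 effects of *HEL2* deletion were 0.79 and −0.62, and differed by −1.41 ± 0.86, a difference that the interaction test did not call (adjusted p = 0.67, edgeR). The gene had 7, 2 and 0 reads in wild type and 7, 5 and 2 in *hel2*∆. *RPN8*, a lid gene, was below the wild-type mean in every double mutant library and above the *hel2*∆ mean in every triple mutant library in log2(CPM + 1). In CPM, triple mutant replicate 3 (66.4) was below the *hel2*∆ mean (70.1). Its effects of U34 modification loss were −0.74 and 0.18, and differed by 0.92 ± 0.53, which the test did not call either (adjusted p = 0.64, edgeR). Both were noticed because, on that log scale, all libraries of 1 strain lay on one side and all of the other on the opposite side.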

How the results depend on the processing

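The medians in the double mutant against wild type and in the triple mutant against wild type and *hel2*∆ stayed above 0 under every alternative run. The median in *hel2*∆ against wild type, near 0, took either sign. Requiring 10 counts in every library left 8 members, of which 3 were called in the double mutant against wild type (median 0.40), 2 in the triple mutant against wild type (0.36), 1 in the triple against the double mutant (median 0.031, the only setting above 0) and 3 in the triple mutant against *hel2*∆ (0.41), on fewer genes by its construction. In that setting 553, 241, 149 and 308 of 1412 genes were called in the same order, so nothing is read from the members' counts. In the triple mutant against *hel2*∆, DESeq2 called 9 members, as did the fit with library total as covariate (median 0.71), which was chosen after the data were seen. Of all 3378 genes, these fits called 346 and 303. With only the strains compared in the fit, 1 member was called in the triple against the double mutant, beside 126 of 3176 genes. Without TMM the median in the double mutant against wild type was 1.26, with all genes shifted by 0.25. Scaled to the effective library size, wild type had 0.538% of reads on members. With each library left out in turn, calls ranged from 7 to 16 in the triple mutant against *hel2*∆ (7 without triple mutant replicate 2, 8 without *hel2*∆ replicate 1), from 4 to 10 against wild type (4 without triple mutant replicate 2) and from 0 to 4 against the double mutant (0 without double mutant replicate 2 or triple mutant replicate 3, 1 without replicate 1 of either, 4 without triple mutant replicate 2). Counts over all genes are not given for these fits. The interaction median ranged from −0.34 to 0.0045. Signs turned only for genes near 0. In the triple mutant against *hel2*∆, *ECM29* was −0.011 without the filter, −0.011 with DESeq2 and −0.0076 with upper-quartile scaling, and *RPN6* was −0.051 with the covariate. With libraries left out, *ECM29* ranged from −0.086 to 0.10 there, *UMP1* from −0.040 to 0.17, *RPN6* from −0.080 to 0.22 and *RPN5* from −0.020 to 0.45, and in the double mutant against wild type *UMP1* ranged from −0.15 to 0.43 and *ECM29* from −0.011 to 0.27. The causes were not tested. With the replicate number as a block, 17, 9, 2 and 11 members were called in the double mutant against wild type and the triple mutant against wild type, the double mutant and *hel2*∆. Of all 3378 genes, 959, 321, 181 and 418 were called there in the same order. Same-numbered double and triple mutant libraries deviated together (mean correlation 0.19, 0.0845 in the lowest pair), and each of these 6 libraries correlated best with its own number, while no other pair of strains did. The numbers were not taken as pairs. The planned promoter search was not run here.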
